A study of Mus musculus with 30 samples.

Results

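The 9 genes of the trophectoderm epithelium, named by symbol, were followed in RNA of mouse embryos at the 8-cell stage in which siRNA had lowered Yy1, which encodes a zinc finger protein that binds DNA. All 9 members had 1 row each among the 49585 rows of the deposited table. They comprise the type II keratins Krt8 and Krt7, the type I keratins Krt18 and Krt19, the claudins Cldn4 and Cldn6, the sodium pump subunit gene Atp1b1, the aquaporin gene Aqp3 and the endocytic adaptor gene Dab2. The Yy1 knockdown group, made with the siRNA that the column names number 1, held 2 libraries, and the control knockdown group held 2. Both groups were embryos of BDF1 x BDF1 crosses cultured in KSOM, an embryo medium, and the sources used here do not give the number of embryos per library. The other 26 of the 30 samples of the series were not analysed here. Values are FPKM, fragments per kilobase of gene scaled to the fragments of the library, and rest on 34074291 and 29302489 fragments in the Yy1 knockdown libraries and 34429515 and 31405476 in the control libraries. Yy1 itself was 10.7-fold lower, with 5.89 and 7.98 FPKM in Yy1 knockdown and 77.7 and 71.2 FPKM in control libraries (limma adjusted p = 0.0556).

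The trophectoderm is the outer, epithelial layer of the blastocyst and gives rise to the fetal part of the placenta. Keratin filaments form from pairs of a type I and a type II keratin and join the cells mechanically through desmosomes. Claudins seal the tight junctions between these cells, the sodium pump drives sodium into the space behind them, and water follows through aquaporins, so that the blastocoel cavity fills. DAB2 links cell surface receptors to clathrin for uptake. The embryos here were at a stage before a trophectoderm has formed, so the list names what these genes mark later. Its defining transcription factors were unevenly present. Tfap2c had 41.4 and 35.01 FPKM in Yy1 knockdown and 55.5 and 43.5 FPKM in control libraries, and Tead4 had 78.1 and 65.9 against 80.2 and 67.9 FPKM. Cdx2 had 2.83 and 0.951 FPKM in Yy1 knockdown and 1.16 and 1.14 FPKM in control libraries, and Eomes was below 1 FPKM in every library. Pou5f1, a pluripotency gene, had 178 and 190.0 FPKM in Yy1 knockdown and 195.0 and 214 FPKM in control libraries.

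The sequences before the start sites of Krt8, Krt18 and Cldn4 are shown because Krt8 and Krt18 are partner keratins that were both higher in both Yy1 knockdown libraries, while Cldn4 was the member lower in both. They are the 250 bases before the RefSeq start in GRCm38.p6, the assembly behind mm10, written 5′ to 3′ along the gene. Krt8 is read on the minus strand at chr15:102004343-102004592, Krt18 on the plus strand at chr15:102027966-102028215 and Cldn4 on the minus strand at chr5:134946935-134947184. Capitals mark matches, on either strand, to the YY1 core ATGGC or to the AP-2 motif GCCNNNGGC, in which N is any base.
Krt8: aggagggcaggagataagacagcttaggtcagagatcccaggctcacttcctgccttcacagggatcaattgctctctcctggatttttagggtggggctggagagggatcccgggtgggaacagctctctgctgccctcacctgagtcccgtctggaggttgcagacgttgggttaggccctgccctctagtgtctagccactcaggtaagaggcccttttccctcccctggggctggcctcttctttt
Krt18: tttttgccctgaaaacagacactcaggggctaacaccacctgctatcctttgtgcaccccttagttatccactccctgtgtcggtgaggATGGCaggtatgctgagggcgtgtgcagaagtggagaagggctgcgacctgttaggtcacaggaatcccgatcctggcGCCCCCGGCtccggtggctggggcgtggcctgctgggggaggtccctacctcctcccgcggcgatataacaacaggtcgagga
Cldn4: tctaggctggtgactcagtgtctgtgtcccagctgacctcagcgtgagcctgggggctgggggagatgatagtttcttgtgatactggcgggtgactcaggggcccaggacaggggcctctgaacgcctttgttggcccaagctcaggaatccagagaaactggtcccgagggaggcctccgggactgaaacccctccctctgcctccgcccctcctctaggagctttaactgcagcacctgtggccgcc

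The YY1 core occurred in 1 of the 8 members with such a window, in that of Krt18, where it begins 161 bases before the start. It occurred in 32.9% of all 32851 windows, so a single match among the members is below that share. The longer YY1 sequence AAGATGGC, which contains the core, occurred in none of the members' windows and in 1.56% of all. The AP-2 motif, recognised by the family to which Tfap2c belongs, occurred in Krt18 at 83 bases before the start and in Krt7 and Dab2, against 13.7% of all windows and 23.8% of tested genes. Dab2 has 2 such windows, which gives it more room for a match. The TEAD motif GGAATG occurred in no member and in 12.6% of all windows. Krt19 had no window in the table.

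Of the 7 members tested, 5 had higher values in both Yy1 knockdown libraries than in either control, against 21.8% of all genes tested. Another 1 was lower in both, against 18.9%, and none passed the test across genes. The test was limma on log2(FPKM + 1), applied to the 12120 genes that averaged 1 FPKM or more and adjusted over all of them after Benjamini-Hochberg. It tested 7 members, leaving out Krt7 and Krt19 as too low, and 0 of the 7 passed an adjusted p of 0.05, as did 0% of all genes tested, of which 1079 had an unadjusted p under 0.05. limma-voom on recovered fragments called 13 genes, none of them a member. Krt7, which was not tested, also lay above both controls, but by less than its counting error. At an unadjusted limma p under 0.05 there were 3 members higher (4.22% of all genes) and 1 lower (4.69%). The median log2 fold change of the 7 was 0.54, beside 0.02 over all genes tested, of which 53.2% were higher. With 2 libraries per group an exact two-sided permutation test of a single gene cannot go below 0.333. As the labels do not say whether the 2 libraries of a group came from separate collections of embryos, the p-values reflect only how far these libraries scatter, a scatter that may be technical.

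**Figure D1:**
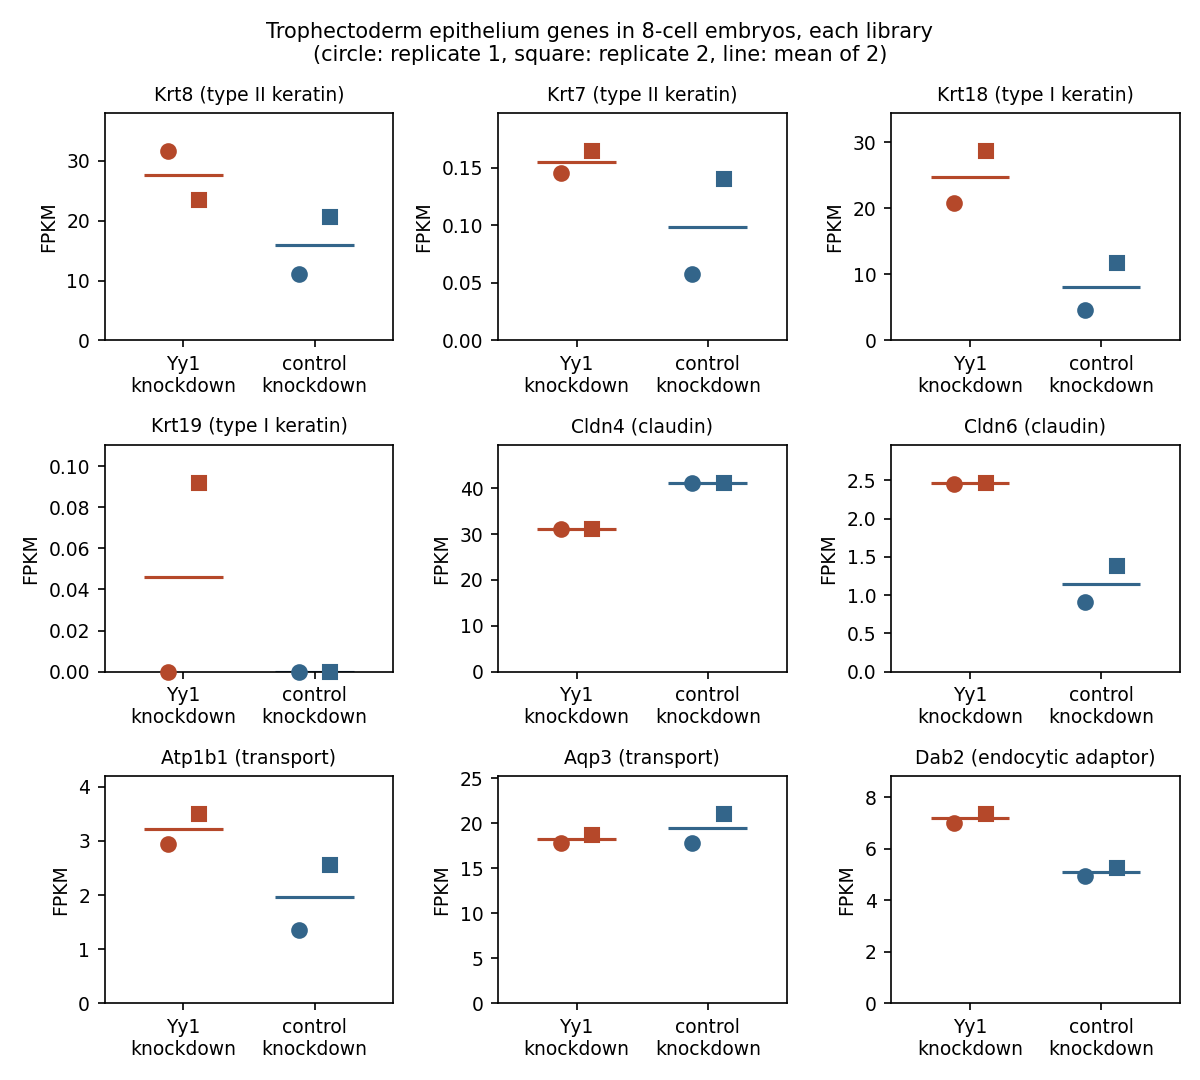
FPKM of the 9 genes (vertical axes, linear from 0, a scale of its own in each panel) in Yy1 knockdown and control knockdown libraries. Circles are replicate 1, squares replicate 2 and lines the mean of 2. Krt18 stood at 20.8 and 28.6 FPKM in Yy1 knockdown against 4.52 and 11.7 FPKM in control libraries, whereas Cldn4 was lower and Aqp3 overlapped.

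Among the keratins, Krt18 differed most. This type I keratin gene, the partner of Krt8 in simple epithelia, had 20.8 and 28.6 FPKM in the Yy1 knockdown libraries, from 993 and 1175 fragments, and 4.52 and 11.7 FPKM in the control libraries, from 218 and 515 fragments. Both Yy1 knockdown libraries lay above both controls, the lower of them 1.78-fold above the higher control. The means were 24.7 ± 5.53 FPKM after Yy1 knockdown and 8.12 ± 5.08 FPKM after control knockdown (SD, n = 2 each), a ratio of 3.05. The log2 fold change was 1.602 ± 0.41 (SE, limma adjusted p = 0.4997), and 0.297% of all genes tested had a larger one. Control replicate 1 was low, and the 2 controls differed 2.59-fold, a gap exceeded by 6.17% of genes tested. Without control replicate 1 the ratio was 2.11, and without control replicate 2 it was 5.47.

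Krt8, the type II partner, had 31.6 and 23.5 FPKM in the Yy1 knockdown libraries and 11.1 and 20.7 FPKM in the control libraries. The groups did not overlap, but the lower Yy1 knockdown library was only 1.14-fold above the higher control, less than the 1.87-fold difference between the 2 controls. The means were 27.6 ± 5.73 FPKM after Yy1 knockdown and 15.9 ± 6.83 FPKM after control knockdown (SD, n = 2 each), with a log2 fold change of 0.81 ± 0.32 (SE) and a limma adjusted p of 0.556. The ratio of the means, 1.74 with all libraries, was 2.496 without control replicate 2 and 1.33 without control replicate 1. Its log2 fold change without control replicate 1 was 0.38. The level of Krt8 relative to Krt18 was 1.52 and 0.822 in the Yy1 knockdown libraries and 2.44 and 1.77 in the control libraries. The type I partner was thus the more abundant of the pair in Yy1 knockdown replicate 2 alone.

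Krt8 and Krt18 lie 23873 bases apart on chromosome 15, Krt8 from 101996711 to 102004342 and Krt18 from 102028216 to 102032026, and are transcribed away from each other. Of 27 keratin genes of that chromosome in the table, these were the 2 with a mean of at least 1 FPKM. Krt78, next to Krt8, had 1.06 and 0.0497 FPKM in Yy1 knockdown and 0.0846 and 0.408 FPKM in control libraries, and Krt79 and Krt4 beyond it were at 0 in all 4. On the other side, Eif4b, which encodes a translation initiation factor, had 133 and 142.0 FPKM in Yy1 knockdown and 113 and 119.9 FPKM in control libraries. Tns2, beyond it, had 0.975 and 1.33 FPKM in Yy1 knockdown and 0.688 and 0.370 FPKM in control libraries, so it too was higher in both Yy1 knockdown libraries, 2.18-fold by mean, but averaged too little to be tested. Spryd3 had 5.27 and 4.70 FPKM in Yy1 knockdown and 5.66 and 6.33 FPKM in control libraries. Neither gene tested passed (limma adjusted p of 0.634 for Eif4b and 0.747 for Spryd3).

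Krt7 and Krt19, the other simple epithelial pair of the list, were below the filter. Krt7, on chromosome 15, had 0.146 and 0.164 FPKM in the Yy1 knockdown libraries, from 35 and 34 fragments, and 0.0576 and 0.14 FPKM in the control libraries, from 14 and 31 fragments. The gap between the lower Yy1 knockdown library and the higher control was 1.04-fold, less than the counting error of 16.9 to 26.7% per library. Krt19, on chromosome 11, was listed at 0 in 3 of the 4 libraries and at 0.092 FPKM in Yy1 knockdown replicate 2, and a count of 0 allows up to 3 fragments. Of 50 other keratin genes in the table, 28 were at 0 throughout and 1 passed the filter, the hair follicle keratin gene Krt28, at 1.83 and 3.74 FPKM in Yy1 knockdown and 1.38 and 2.76 FPKM in control libraries.

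The claudins went in opposite directions by mean. Cldn4, on chromosome 5 from 134945123 to 134946934, had 31.01 and 31.01 FPKM in the Yy1 knockdown libraries and 41.2 and 41.2 FPKM in the control libraries. It was the most abundant of the 9 in the control libraries, and the one member with both Yy1 knockdown libraries below both controls. The means were 31.01 ± 0.00347 FPKM after Yy1 knockdown and 41.2 ± 0.0318 FPKM after control knockdown (SD, n = 2 each), 1.33-fold lower. On the log2 scale this was -0.40 ± 0.13 (limma adjusted p = 0.532), and limma draws that SE of 0.13 also from genes of like level. The replicates differed by 0.0158% in Yy1 knockdown and 0.109% in control libraries, less than the counting error of 1.97 to 2.46% per library, so the SD understates the error.

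Cldn6, a claudin of early embryonic epithelia on chromosome 17 from 23679348 to 23682446, had 2.46 and 2.47 FPKM in the Yy1 knockdown libraries, from 126 and 109 fragments. The control libraries had 0.906 and 1.37 FPKM, from 47 and 65 fragments. The groups did not overlap, the lower Yy1 knockdown library lying 1.79-fold above the higher control. The means were 2.46 ± 0.0103 FPKM after Yy1 knockdown and 1.14 ± 0.331 FPKM after control knockdown (SD, n = 2 each), 2.16-fold higher, with a log2 fold change of 0.70 ± 0.26 (SE) and a limma adjusted p of 0.541. Cldn4 stood 12.6-fold above Cldn6 in each Yy1 knockdown library and 45.5-fold and 29.97-fold above it in the control libraries. With only 47 to 126 fragments, counting error alone was 8.91 to 14.6% per library.

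Of 23 other claudin genes, 2 passed the filter. Cldn7 had 17.6 and 17.1 FPKM in Yy1 knockdown and 15.9 and 25.7 FPKM in control libraries, and Cldn12 had 2.72 and 2.43 FPKM in Yy1 knockdown and 0.8999 and 1.53 FPKM in control libraries (limma adjusted p of 0.823 for Cldn7 and 0.555 for Cldn12). Of 9 tight junction partners tested, 6 were higher and 3 lower by log2 fold change, with a median of 0.01 and 0 passing. Ocln, which encodes the tight junction protein occludin, had 6.30 and 3.01 FPKM in Yy1 knockdown and 8.91 and 8.18 FPKM in control libraries (limma adjusted p = 0.556). Of 13 adherens junction, desmosome and plakin genes, 8 were higher and 5 lower (median 0.19), with 0 passing. Nectin2, an adhesion receptor, had 5.44 and 5.30 FPKM in Yy1 knockdown and 2.12 and 3.70 FPKM in control libraries (limma adjusted p = 0.535).

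Of the transport genes, Atp1b1, the gene of a beta subunit of the sodium pump on chromosome 1, had 2.95 and 3.50 FPKM in the Yy1 knockdown libraries and 1.36 and 2.56 FPKM in the control libraries. The groups did not overlap, though the lower Yy1 knockdown library was 1.15-fold above the higher control and the controls differed 1.89-fold. The means were 3.23 ± 0.387 FPKM after Yy1 knockdown and 1.96 ± 0.852 FPKM after control knockdown (SD, n = 2 each). The log2 fold change was 0.54 ± 0.29 (SE, limma adjusted p = 0.632), and 0.24 without control replicate 1. Another beta subunit gene, Atp1b3, stood above Atp1b1 at 41.6 and 38.7 FPKM in Yy1 knockdown and 35.5 and 34.4 FPKM in control libraries (limma adjusted p = 0.703).

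Aqp3, the gene of an aquaporin that carries water and glycerol, on chromosome 4, overlapped between the groups. It had 17.8 and 18.7 FPKM in the Yy1 knockdown libraries and 17.8 and 21.05 FPKM in the control libraries. Its log2 fold change was -0.08 ± 0.16 (SE, limma adjusted p = 0.902), and 0.03 without control replicate 2. Of 10 other aquaporin genes, Aqp9 alone passed the filter, at 18.6 and 15.4 FPKM in Yy1 knockdown and 21.6 and 16.5 FPKM in control libraries. Among sodium proton exchangers and other ion channels, 4 of 11 genes were tested, 1 higher and 3 lower, with 0 passing. Of these, Slc12a2, a sodium, potassium and chloride cotransporter gene, had 111 and 106 FPKM in Yy1 knockdown and 125 and 146 FPKM in control libraries (limma adjusted p = 0.593).

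Dab2, on chromosome 15 from 6299788 to 6440715, had 7.02 and 7.35 FPKM in the Yy1 knockdown libraries and 4.93 and 5.23 FPKM in the control libraries. The groups did not overlap, and the gap of 1.34-fold between the groups exceeded the 1.05-fold and 1.06-fold differences within them. The means were 7.18 ± 0.236 FPKM after Yy1 knockdown and 5.08 ± 0.216 FPKM after control knockdown (SD, n = 2 each), with a log2 fold change of 0.43 ± 0.18 (SE) and a limma adjusted p of 0.57. Dab2 also marks primitive endoderm, the second lineage of the inner cell mass. Of 5 primitive endoderm genes tested 3 were higher and 2 lower, and 0 had groups that did not overlap, beside 40.7% of all genes tested. Among them, Gata6 had 65.5 and 50.7 FPKM in Yy1 knockdown and 60.6 and 57.4 FPKM in control libraries. Among 14 clathrin adaptor partners, 8 were higher and 6 lower (median 0.02). Of these Cltc, the clathrin heavy chain gene, had 23.2 and 23.2 FPKM in Yy1 knockdown and 35.2 and 32.4 FPKM in control libraries (limma adjusted p = 0.502). The uptake receptor genes Lrp2 and Cubn were below 1 FPKM in all 4 libraries.

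**Figure D2:**
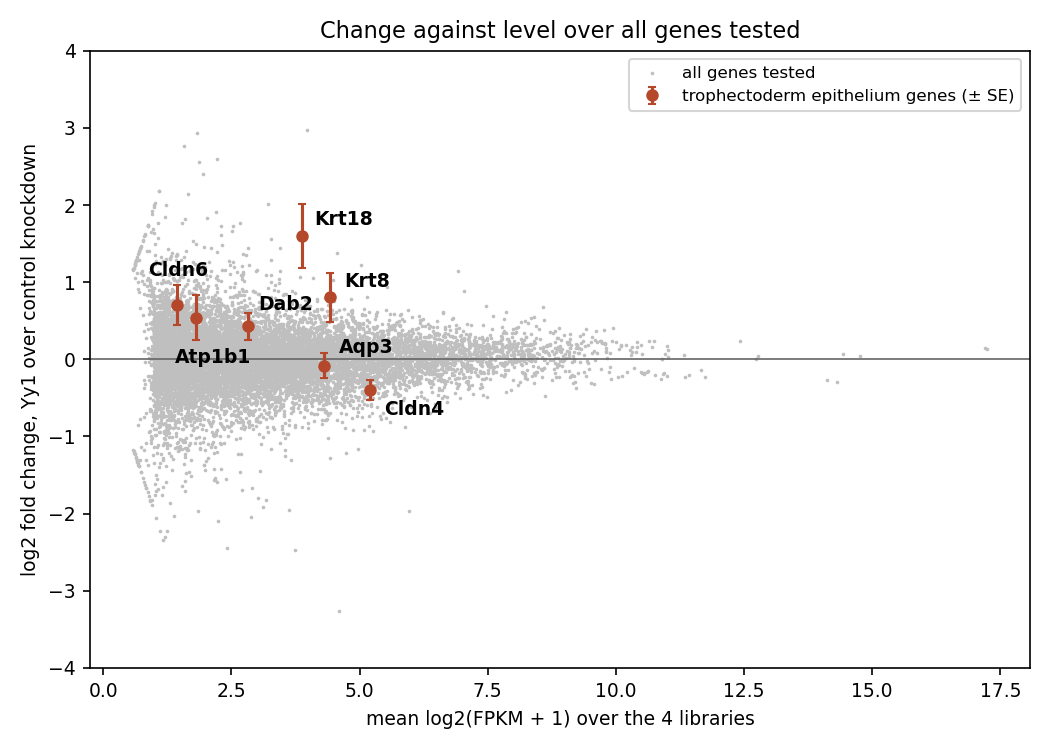
Log2 fold change of Yy1 over control knockdown (vertical axis) against mean log2(FPKM + 1) over the 4 libraries (horizontal axis) for all 12120 genes tested (grey) and the 7 members tested (red, ± SE). Krt18 at 1.602 lies at the upper edge of genes of its level, while Aqp3 and Cldn4 lie below 0.

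**Figure D3:**
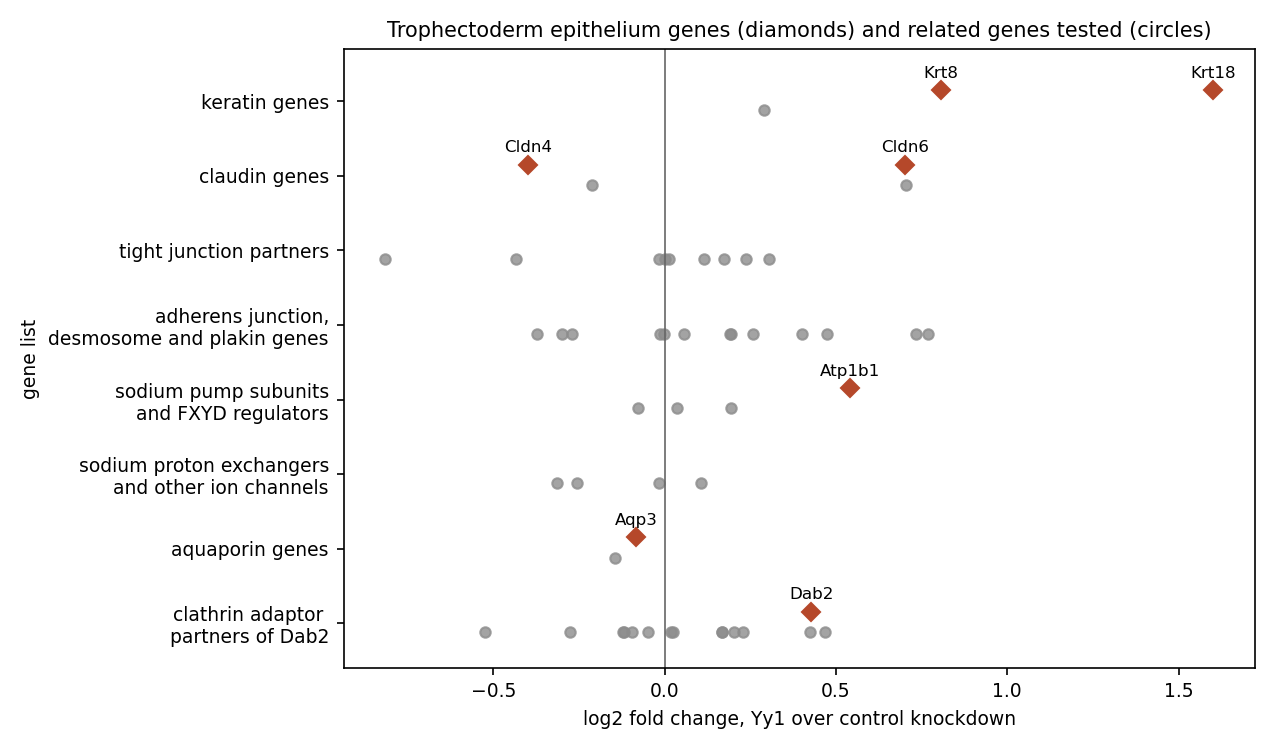
Log2 fold change of Yy1 over control knockdown (horizontal axis) of the members tested (diamonds) and of the related genes tested in each list (circles). Krt8 and Krt18 lie to the right of the 1 other keratin gene tested, and no gene shown passed an adjusted p of 0.05.

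Control replicate 1 was the lowest of the 4 libraries for Krt8, Krt18, Cldn6, Atp1b1 and Dab2, 5 of the 7 members tested. It was the lowest for 28.9% of all genes tested. That share is not a like comparison, because these 5 had both controls below both Yy1 knockdown libraries. Their lowest library was thus bound to be a control. The summed FPKM of the 4 keratin members were 52.6 and 52.4 in the Yy1 knockdown libraries and 15.6 and 32.6 in the control libraries. Without control replicate 1, Krt8, Krt18, Cldn6, Atp1b1 and Dab2 kept positive log2 fold changes of 0.38, 1.0002, 0.54, 0.24 and 0.39. Embryo RNA was measured in bulk, so that a change in the number of cells with a transcript and a change in its amount per cell cannot be told apart.

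**Figure D4:**
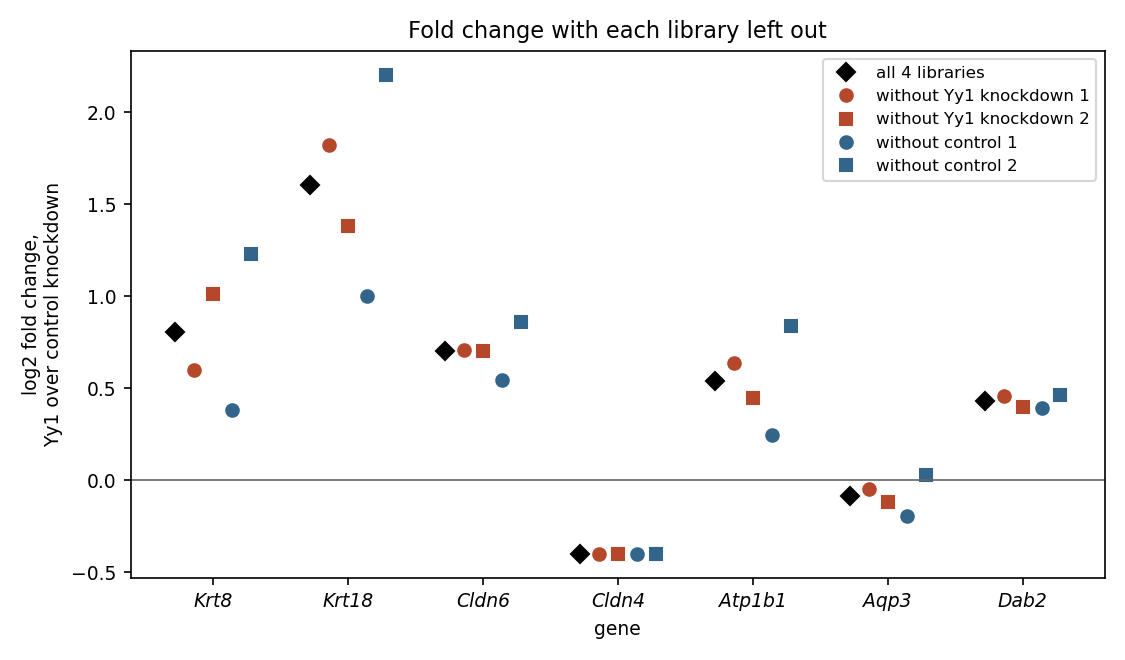
Log2 fold change of Yy1 over control knockdown (vertical axis) for the 7 members tested, with all 4 libraries (black) and with each library left out. Krt18 spans 1.0002 to 2.203, Cldn4 stays at -0.40, and Aqp3 crosses 0.

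Of 14 trophectoderm transcription factor genes tested, 8 were higher and 6 lower, with a median log2 fold change of 0.07 and 0 passing. In 2 of them both Yy1 knockdown libraries lay above both controls, and in 2 both lay below. Tfap2c was among those lower in both, with a log2 fold change of -0.36 (limma adjusted p = 0.623). Of the 11 further factors below the filter, Eomes, Tfap2a, Elf5, Id2 and Ets2 lay above both controls in both Yy1 knockdown libraries, and the rest overlapped. Those named were below 1 FPKM in every library and were not tested. Gata3 had 5.02 and 4.23 FPKM in Yy1 knockdown and 3.48 and 3.08 FPKM in control libraries, and Wwtr1, which encodes the coactivator TAZ, had 23.3 and 19.6 against 17.1 and 13.1 FPKM (limma adjusted p of 0.632 for Gata3 and 0.561 for Wwtr1). Among 15 polarity genes 7 were higher and 8 lower (median -0.03). Amot and Amotl2, which encode angiomotins of the Hippo pathway, were higher by mean, Amot at 28.7 and 22.9 FPKM in Yy1 knockdown and 11.6 and 20.4 FPKM in control libraries (limma adjusted p = 0.566). Rdx, the radixin gene, had 12.7 and 13.2 FPKM in Yy1 knockdown and 19.5 and 18.4 FPKM in control libraries (limma adjusted p = 0.518). Of 15 pluripotency genes 4 were higher and 11 lower (median -0.11), with 0 passing. Zfp42, which encodes the pluripotency marker REX1 and is a relative of Yy1, stood far from that median, at 5.43 and 3.99 FPKM in Yy1 knockdown and 30.7 and 30.2 FPKM in control libraries. It was 6.46-fold lower, with a log2 fold change of -2.47 ± 0.19 (SE, limma adjusted p = 0.0928). Klf4, a pluripotency transcription factor gene, had 22.1 and 16.5 FPKM in Yy1 knockdown and 26.4 and 31.4 FPKM in control libraries (limma adjusted p = 0.532). Of 19 genes typical of the 2-cell stage 18 were higher and 1 lower (median 0.49), with 0 passing. Over all genes tested, 53.2% were higher. In 7 of the 19 both Yy1 knockdown libraries lay above both controls, against 21.8% of all genes tested. Many of the 19 are copies within multicopy families such as Tdpoz, so they are not separate observations. Tcstv3, of a multicopy family, had 9.03 and 6.09 FPKM in Yy1 knockdown and 3.13 and 2.19 FPKM in control libraries (limma adjusted p = 0.462).

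The 5 genes with profiles nearest to the mean of Krt8 and Krt18 over the 4 libraries were Tdpoz3, Tktl1, Rwdd4a, Amot and Cebpzos. Their Euclidean distances on centred log2(FPKM + 1) values were 0.187 to 0.624, against 0.515 for Krt8 and Krt18 each and a median of 1.44 over the 4783 genes considered. Tdpoz3, of a multicopy family whose near-identical copies make single members uncertain, had 13.04 and 13.02 FPKM in Yy1 knockdown and 3.97 and 7.77 FPKM in control libraries. Among the members, Cldn6 at 0.709 and Atp1b1 at 0.739 were nearest to the keratin pair and Cldn4 at 1.76 was farthest. Such likeness over 4 libraries is a description only.

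Most markers of other cells that could accompany embryos were below 1 FPKM, but Amhr2 was at about the level of the member Dab2. Of 18 cumulus and granulosa cell markers 7 were at 0 in all 4 libraries, Fshr, Inha and Lhcgr among them, and the list summed to 10.4 and 8.76 FPKM in Yy1 knockdown and 7.56 and 6.24 FPKM in control libraries. Most of it was Amhr2, at 7.80 and 7.30 FPKM in Yy1 knockdown and 5.35 and 4.74 FPKM in control libraries. Of 10 blood cell markers 3 were at 0 throughout, and the list summed to 3.79 and 5.71 FPKM in Yy1 knockdown and 2.80 and 1.55 FPKM in control libraries, with Cd68 its highest at 2.33 and 3.04 against 1.43 and 1.14 FPKM. The 8 oviduct epithelium markers summed to 0.911 and 1.38 FPKM in Yy1 knockdown and 0.8998 and 0.792 FPKM in control libraries, and the 8 fibroblast markers to 0.224 and 0.2145 against 0.102 and 0.0373 FPKM. The sums of all 4 lists were higher in both Yy1 knockdown libraries, as were Krt8 and Krt18. A single gene each, Amhr2, Cd68 and Thy1, made up most of the cumulus, blood and fibroblast sums after Yy1 knockdown. Amhr2 and Cd68 had log2 fold changes of 0.50 and 0.69 (limma adjusted p of 0.541 for Amhr2 and 0.546 for Cd68), beside 0.70 for Cldn6. Of the other markers, Ovgp1, Tppp3, Cd79a and Fap were higher in both Yy1 knockdown libraries, and Star and Wt1 lower in both, each below 1 FPKM. Cd79a had 0.443 and 0.796 FPKM in Yy1 knockdown and 0.0598 and 0.153 FPKM in control libraries. The rest overlapped, among them Inhbb at 2.30 and 0.666 FPKM in Yy1 knockdown and 1.90 and 0.943 FPKM in control libraries. The part of such cells in the members' values was not tested.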

How the data were processed

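Per the labels' protocols, RNA of the embryos went into libraries by a SMART-Seq method that keeps strand. The FPKM values were used as deposited by the authors. HISAT2 2.2.1, Trim Galore 0.6.7, R 4.0.3, featureCounts and mm10 appear, with no role given, in the submitters' processing notes. Not given in the sources used here are the annotation, the strand setting and how reads with several places were counted. Groups and replicate numbers came from the titles.

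Fragment totals were recovered from genes for small RNAs, which have 1 exon. The FPKM and RefSeq length of each gave the library total that a count of 1 fragment would imply. The largest of the commonest such values was taken as the total. For each gene, the smallest whole length that gave counts whole within 0.02 fragments in all 4 libraries was then taken. Such a length was found for 12118 of 12120 genes. Because the length was fitted, the whole counts do not test the totals. The smallest length can also give counts that are too small by a whole factor. Counting errors cover sampling of fragments only, as PCR copies are not independent molecules.

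limma 3.58.1 in R 4.3.3 was fitted to log2(FPKM + 1) with group alone and a mean-variance trend, for genes averaging 1 FPKM or more, with Benjamini-Hochberg adjustment over all of them. A fold change on this scale understates that of low genes. The members and the gene lists were chosen with earlier results of these data known. Named were all members, Yy1, up to 4 genes per list by smallest p, and the 5 genes most like the keratin pair; genes named for their levels alone (Tead4, Cdx2, Eomes, Pou5f1, Gata6, Lrp2, Cubn, chromosome neighbours and cell markers) fall outside that rule and were chosen after their values were seen. Sequences and coordinates are from RefSeq (GRCm38.p6), where 8 of 9 members had a promoter window. Alternatives were another pseudocount, filters, scalings, moderation, a replicate block, limma-voom and leaving out each library.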

Additional observations from a re-analysis of the deposited data

How the results depend on the processing

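No member passed an adjusted p of 0.05 under any of the 13 alternatives. The count of genes called over all genes tested, 0 with 1079 at an unadjusted p under 0.05 in the limma fit as reported, was 4 with a filter of 5 FPKM, 1 with robust eBayes and 13 with limma-voom on recovered fragments, the cause of which was not tested. It was 0 without any one library. Of the members, 5 were higher by mean with all libraries and 3 with a filter of 5 FPKM, where Cldn6 and Atp1b1 were not tested. Leaving out single libraries gave 5 to 6 higher. The log2 fold changes of Krt8, Krt18, Cldn6, Atp1b1, Dab2 and Cldn4 kept their direction under the alternatives run for each. Aqp3 ranged from -0.20 to 0.031 when single libraries were left out, the positive value being that without control replicate 2. When libraries were left out, Krt8 ranged from 0.38 to 1.23, Krt18 from 1.0002 to 2.203, Atp1b1 from 0.24 to 0.84 and Cldn6 from 0.54 to 0.86. In such fits 1 group has a single library, assumed to vary like the other group. With a pseudocount of 0.1 Cldn6 was 1.07. With the replicate number as a block, 0 genes were called and the adjusted p of Krt18 was 0.456. Same-numbered libraries deviated with a correlation of 0.099 across genes, so the numbers are not taken to pair the libraries. Median-ratio scaling and quantile normalization moved the median of all genes by -0.02 each. Depth limits Krt7 and Krt19, and the 47 to 126 fragments of Cldn6 limit its precision.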
